A study of Mus musculus with 10 samples.

Results

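Fos, Fosb, Jun, Junb, Jund, Egr1, Ier2, Ier3 and Dusp1 are 9 immediate early and AP-1 genes of the mouse. They were taken by gene symbol, each matching 1 line of the expression tables, from 36586 named genes. RAD23B regions were counted for a gene when they lay in its listed locus or within 5 kb of it. RAD23B is the partner of XPC in the damage sensor of nucleotide excision repair, and the study examined this complex as a transcriptional coactivator in mouse embryonic stem cells. RNA was sequenced from 4 libraries of the JM8.N4 line: Rad23b-/- cells, Rad23b-/- cells with Xpc knocked down by hairpin KD1, the same by an independent hairpin KD2, and wild-type cells. Each of these groups is 1 library, all 3 mutant libraries share the Rad23b deletion, and the 1 wild-type library is the control for all of them. Chromatin immunoprecipitation (ChIP) was sequenced in 6 libraries: 1 with guinea pig antibodies to RAD23B and 1 with normal IgG from Xpc-/- cells, whose line the labels do not name, and 2 with each from wild-type cells of the D3 line. The labels name no serum, growth factor or stress treatment for any library, and nothing in them says whether libraries came from separate cultures.

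Immediate early genes are transcribed soon after a growth factor or stress signal reaches the nucleus, without new protein synthesis, and their RNAs are short-lived. Many are switched on through ERK and other MAP kinases, which act on serum response factor with its ETS-family partners and on CREB at gene promoters. FOS and JUN proteins pair through leucine zippers into the transcription factor AP-1, EGR1 is a zinc finger factor, and DUSP1 is a phosphatase that switches MAP kinases off again. In embryonic stem cells ERK signalling favours the exit from the naive state.

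Promoter sequences of RefSeq (GRCm38.p6) were read for 7 of the 9 genes. Egr1 was left out when the sequences were read, and Ier2 had no match. The 250 bases before the start are shown for Fos and Fosb, whose RNA was lower in every mutant library, for Ier3, whose RNA was higher, and for Dusp1, the single gene with a full cyclic AMP response element. Letters run 5′ to 3′ on the gene's own strand, capitals mark TGACG, TGACGTCA and TATAA, and positions are counted from 1 at the first base shown.
Fos (chr12:85473640-85473889, plus strand): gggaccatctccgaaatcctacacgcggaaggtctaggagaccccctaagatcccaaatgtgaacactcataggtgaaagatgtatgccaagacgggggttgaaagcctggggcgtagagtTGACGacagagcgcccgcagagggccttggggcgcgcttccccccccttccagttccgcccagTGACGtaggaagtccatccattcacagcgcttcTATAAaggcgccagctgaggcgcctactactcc
Fosb (chr7:19310046-19310295, minus strand): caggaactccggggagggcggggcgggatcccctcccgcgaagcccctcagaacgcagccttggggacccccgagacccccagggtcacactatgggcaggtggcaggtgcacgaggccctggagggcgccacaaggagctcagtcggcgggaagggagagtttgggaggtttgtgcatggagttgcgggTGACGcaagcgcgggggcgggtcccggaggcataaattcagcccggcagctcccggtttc
Ier3 (chr17:35821463-35821712, plus strand): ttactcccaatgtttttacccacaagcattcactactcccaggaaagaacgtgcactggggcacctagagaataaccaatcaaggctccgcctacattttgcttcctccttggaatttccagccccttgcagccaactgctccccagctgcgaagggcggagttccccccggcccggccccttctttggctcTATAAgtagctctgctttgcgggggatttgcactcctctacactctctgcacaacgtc
Dusp1 (chr17:26508473-26508722, minus strand): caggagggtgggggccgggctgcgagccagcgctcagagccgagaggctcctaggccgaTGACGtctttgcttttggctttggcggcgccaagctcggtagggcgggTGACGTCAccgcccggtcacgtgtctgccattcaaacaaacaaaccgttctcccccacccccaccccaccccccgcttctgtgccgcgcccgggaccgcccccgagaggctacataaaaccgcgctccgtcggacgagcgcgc
Motifs were searched on both strands of windows that ran from 250 bases before to 50 bases after the start. TGACGTCA, the palindromic site bound by CREB, was found in Dusp1 at bases 108 to 115 and in 1.88% of 27025 promoters (3.41% of the 8159 promoters of protein-coding genes with a wild-type level of at least 1). The CArG box bound by serum response factor (CC, then 6 positions of A or T, then GG), the AP-1 site TGANTCA and the octamer ATGCAAAT were in none of the 7 windows, and in 1.57%, 7.93% and 1.75% of all promoters. Sites further upstream were not searched, and Egr1 and Ier2 are not among the 7, so such sites may lie outside these windows. TGACG and TATAA were added to the search after the sequences were seen. TGACG, the first part of the CREB site and overlapping it where both occur, was in the Fos (bases 122 to 126 and 185 to 189), Fosb (191 to 195), Junb and Dusp1 windows, 4 of 7, and in 21.0% of all promoters (32.5% of active ones). TATAA was in the Fos (218 to 222), Ier3 (193 to 197) and Junb windows, 3 of 7, and in 25.5% of all promoters (12.3% of active ones). These matches describe letters, and no binding was measured at them.

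RNA of the targeted genes was lower in the libraries meant to lack it, though not gone. Rad23b had 43.9, 36.8 and 53.4 RPKM (reads scaled to transcript length and library size) in the Rad23b-/-, KD1 and KD2 libraries, against 229 in wild type. Xpc had 8.34, 0.939 and 0.910 RPKM in the same libraries, against 8.73 in wild type. The libraries were of stem cells by their markers: Pou5f1 stood at 1152, 1507 and 1455 RPKM, against 1603 in wild type. Nanog, a homeobox factor of naive cells, was at least 2-fold lower in each mutant library, at 197 (Rad23b-/-), 249 (KD1) and 213 (KD2), against 512 in wild type (log2 ratios -1.37, -1.04 and -1.26). The 6 stem cell markers, most of the sum being Pou5f1, summed to 1809, 2261 and 2148, against 2747. Of 8 feeder fibroblast markers 7 stayed below 1 RPKM in every library, with Postn at 0 throughout, and their sums were 2.66, 2.10 and 2.09 in the mutant libraries and 1.89 in wild type. Of 8 listed markers of differentiating cells 7 were matched, and these summed to 10.6, 9.21 and 11.9, against 6.85. Of the 7, 4 stayed below 1 RPKM in every library. Their deposited ratios to wild type ran from T (0.56, 0.35 and 0.47) to Cdx2 (6.6, 6.2 and 7.7). Read totals are not given, and the steps between low values put the mutant libraries at 1.29, 1.23 and 1.26 times the wild-type depth. These estimates rest on the densest narrow window of ratios, which held 71 of 1562, 118 of 1652 and 79 of 1585 low genes. The part of any of these in the values below was not tested, and fewer cells with a transcript and less transcript per cell cannot be told apart in bulk RNA.

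Fos, Fosb and Egr1 were at least 2-fold lower in each mutant library than in wild type, and Ier3 was at least 2-fold higher in both knockdown libraries. The other 5 genes, Jun, Junb, Jund, Ier2 and Dusp1, were within 2-fold of wild type in all 3, as was Ier3 in the Rad23b-/- library. In the Rad23b-/- library 3 of the 9 genes were at least 2-fold lower, where 4.61% of 15040 genes were, and 0 were at least 2-fold higher, where 4.74% were. In KD1 the counts were 3 lower (3.40% of 14821 genes) and 1 higher (3.95%), and in KD2 3 lower (3.60% of 14877 genes) and 1 higher (3.93%). These 3 comparisons share the wild-type library, so a deviation of that library alone would appear in all of them. No test could be run on single libraries, and every value is a level or a ratio between single libraries. Ratios are log2 of RPKM + 1 in the mutant over the same in wild type, and a gene entered a comparison when either library reached 1 RPKM. Knockdown levels are given on the scale of the Rad23b-/- table.

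**Figure D1:**
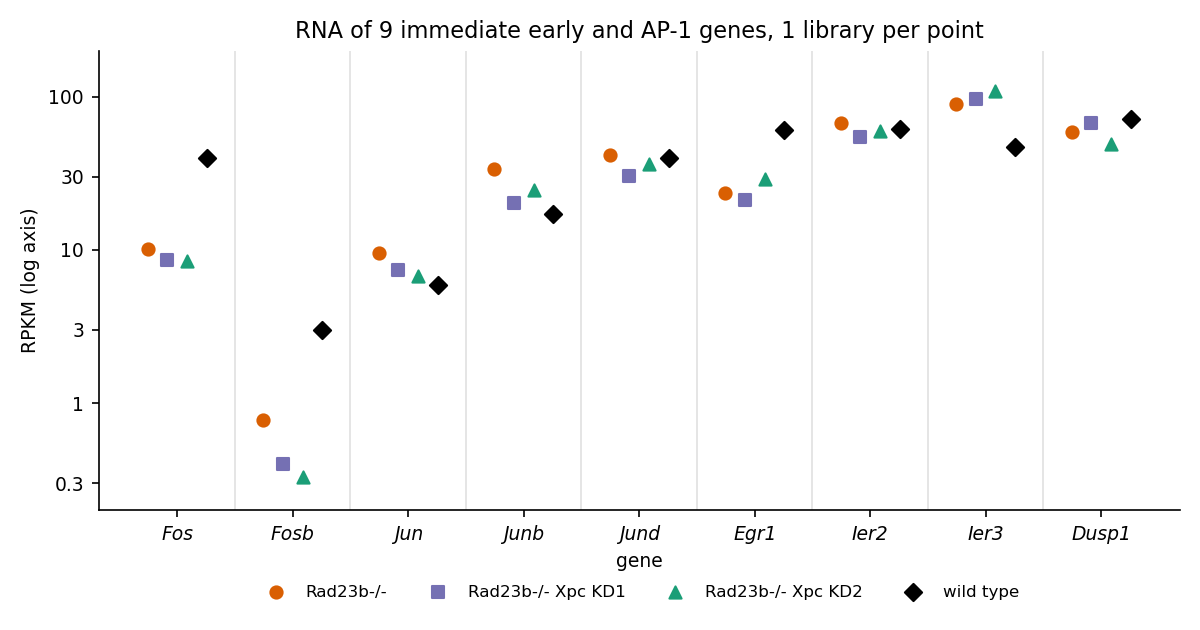
RPKM of the 9 genes (log axis) in the Rad23b-/-, KD1, KD2 and wild-type libraries, 1 point per library and no error bars because each group is 1 library. Fos, Fosb and Egr1 have the wild-type point above the mutant points, Ier3 has it below them, and the other 5 genes have points closer together.

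Both Fos family subunits were lower in every mutant library. Fos, the founding FOS subunit, which binds DNA only paired with a JUN protein, had 10.2 RPKM in the Rad23b-/- library, 8.57 in KD1 and 8.42 in KD2, against 39.9 in wild type. The mutant values lay close together and at 25.5%, 21.5% and 21.1% of wild type, with log2 ratios of -1.87, -2.09 and -2.12. Among all genes passing the level limit those ratios stood at percentiles 1.04, 0.810 and 0.753, and its p-values in the authors' deposited table were 0.012, 0.000 and 0.000 (3 decimals, no replicates). Fosb, a FOS paralogue also known in a truncated form in the brain, was low everywhere. Fosb had 0.773, 0.397 and 0.329 RPKM in the Rad23b-/-, KD1 and KD2 libraries, against 2.99 in wild type. Its log2 ratios were -1.17, -1.50 and -1.58, which understate a change at so low a level and were -0.47, -0.56 and -0.58 with a pseudocount of 5, and its raw ratios were 3.87-fold, 7.54-fold and 9.10-fold lower. The authors' deposited table gave Fosb p-values of 0.011, 0.000 and 0.000.

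The Jun family subunits, which can pair with each other as well as with FOS proteins, did not share this pattern. Jun, the founding JUN subunit, had 9.54, 7.37 and 6.71 RPKM in the Rad23b-/-, KD1 and KD2 libraries, against 5.86 in wild type. Its log2 ratios were 0.62, 0.28 and 0.17, all under 2-fold. Junb, a subunit that often restrains JUN activity, had 33.96 RPKM in the Rad23b-/- library, 20.2 in KD1 and 24.5 in KD2, against 17.1 in wild type. The Rad23b-/- library was the highest of the 4, at 198% of wild type and a log2 ratio of 0.95, just short of the 2-fold limit, and the knockdown libraries were at 0.22 and 0.49. Jund, the subunit made most steadily in resting cells, had 41.9, 30.3 and 36.2 RPKM, against 39.7 in wild type, with log2 ratios of 0.07, -0.38 and -0.13. The authors' deposited table held no p-value under 0.05 for these 3 genes, and the lowest was 0.054 for Junb in the Rad23b-/- library. Jun shares its listed coordinates with n-R5s189 and 4930551L18Rik, and Jund with Gm11175, which was at 88.4 RPKM in the Rad23b-/- library and 82.9 in wild type. Genes on shared coordinates had values of their own at all 2993 such loci with at least 2 genes above 0.

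Egr1, the zinc finger factor induced by ERK through serum response factor, followed the Fos genes. Egr1 had 23.4 RPKM in the Rad23b-/- library, 21.2 in KD1 and 28.95 in KD2, against 60.6 in wild type. The mutant values were 38.6%, 35.0% and 47.8% of wild type, with log2 ratios of -1.34, -1.47 and -1.04. In the authors' deposited table Egr1 had p-values of 0.015, 0.001 and 0.032. The KD2 ratio lay close to the 2-fold limit; it was -0.95 with a pseudocount of 5 and -0.90 once the ratios were centred on the median of all genes, which was -0.14 there.

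The pair of Ier genes and Dusp1 diverged. Ier3, a small protein of stressed and growing cells linked to survival and ERK signalling, had 90.1 RPKM in the Rad23b-/- library, 96.6 in KD1 and 108 in KD2, against 47.3 in wild type. All mutant values were about 2-fold above wild type, at log2 ratios of 0.91, 1.01 and 1.18, of which the knockdown ratios passed the 2-fold limit. The KD1 call was lost with a pseudocount of 5 (0.96) and with the wild-type values of the Rad23b-/- table (0.98), and the Rad23b-/- ratio passed 2-fold once centred (1.08). The authors' deposited table gave Ier3 p-values of 0.059, 0.021 and 0.009. Ier2, a nuclear protein of the same early class, had 67.8, 54.95 and 60.3 RPKM, against 61.8 in wild type, and the wild-type value lay inside the range of the mutant values. Dusp1, the MAP kinase phosphatase, had 58.8 RPKM in the Rad23b-/- library, 67.7 in KD1 and 49.0 in KD2, against 71.2 in wild type. The Dusp1 log2 ratios of -0.27, -0.07 and -0.53 were all under 2-fold, and the wild-type value was the highest of the 4. In the authors' deposited table the p-values of Ier2 and Dusp1 were between 0.285 and 0.934.

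As a group the 9 genes had no common direction. Their median log2 ratio was 0.07 in the Rad23b-/- library, -0.17 in KD1 and -0.13 in KD2, beside medians of -0.16, -0.14 and -0.14 over all genes tested. Of the 9 genes 3 were lower in the authors' deposited table with a p-value under 0.05 in each comparison (Fos, Fosb and Egr1), where 1.27%, 1.22% and 1.20% of genes were. In the authors' deposited table there were also 0, 1 and 1 of them higher (Ier3 in both knockdowns), where 1.50%, 1.54% and 1.54% of genes were.

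With Xpc knocked down on top of Rad23b loss, 0 of the 8 genes that passed the level limit were 2-fold from the Rad23b-/- library, with Fosb under the limit in all 3 mutant libraries. Against the Rad23b-/- library, at least 2-fold higher were 1.58% of all genes in KD1 and 1.65% in KD2, and lower were 2.04% and 1.80%. The members' log2 ratios against the Rad23b-/- library reached from -0.72 (Junb) to 0.20 (Dusp1) in KD1, and from -0.46 (Junb) to 0.29 (Egr1) in KD2. KD2 over KD1, the nearest to a repeat in these RNA data, gave log2 ratios from -0.46 for Dusp1 to 0.43 for Egr1, and 0 of 8 genes at 2-fold (1.70% higher and 1.68% lower among all genes). Over 11513 genes with 2 to 150 RPKM in both knockdown libraries the log2 ratio had a standard deviation of 0.28, with 5th and 95th percentiles of -0.38 and 0.39. The members' ratios against Rad23b-/- lay between those percentiles, except Junb and Jund in KD1 (-0.72 and -0.45) and Jun and Junb in KD2 (-0.45 and -0.46). The Fos ratios over wild type (-1.87 to -2.12) lay far outside them. The KD2 over KD1 spread includes any difference between the hairpins, and it holds no difference between the wild-type and Rad23b-/- lines. Ratios over wild type spread wider among genes with 2 to 150 RPKM in both libraries compared. Their 5th and 95th percentiles were -0.88 and 0.65 in the Rad23b-/- library, -0.79 and 0.60 in KD1 and -0.80 and 0.62 in KD2. The Fos ratios lay outside those as well.

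**Figure D2:**
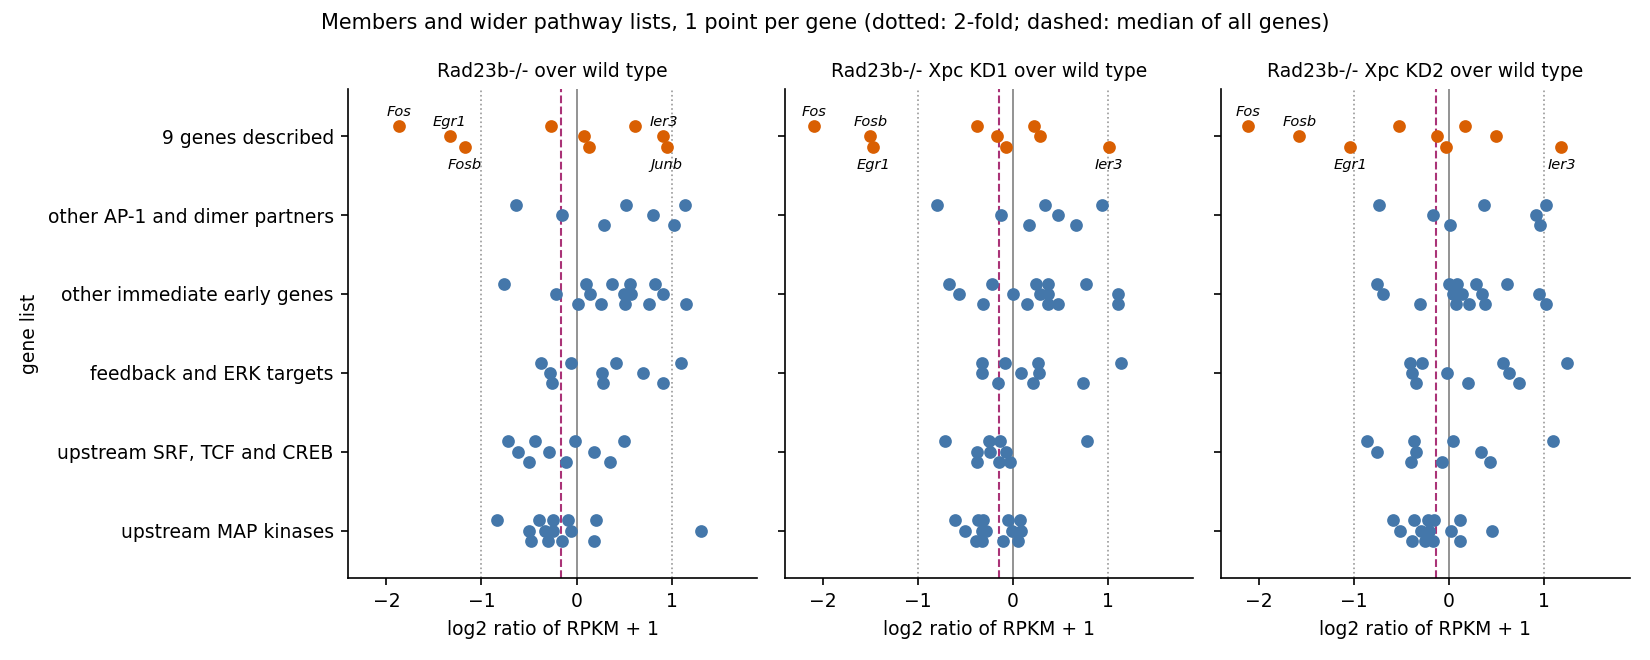
Log2 ratio of RPKM + 1 for each mutant library over wild type, 1 point per gene that reached 1 RPKM in either library, for the 9 genes and 5 wider lists; dotted lines mark 2-fold and the dashed line the median of all genes (-0.16, -0.14 and -0.14). Fos, Fosb and Egr1 lie left of every gene of the wider lists in all 3 panels.

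By the ratio of RPKM + 1, no gene of the 5 wider pathway lists was at least 2-fold lower in a mutant library. That ratio understates changes at low levels, as for Fosb. Nr4a2, an immediate early gene, had 0.317, 0.499 and 0.313 RPKM in the Rad23b-/-, KD1 and KD2 libraries, against 1.23 in wild type. Its raw ratios were 3.89-fold, 2.47-fold and 3.94-fold lower, and its log2 ratios -0.76, -0.57 and -0.76. Nr4a2 was picked after its values were seen. The 5 wider lists hold 66 genes, and 56 passed the level limit in each comparison. At least 2-fold higher were 5 of 56 in the Rad23b-/- library, 3 in KD1 and 4 in KD2, beside 4.74%, 3.95% and 3.93% of all genes. At least 2-fold lower were 0 in each, beside 4.61%, 3.40% and 3.60% of all genes. Their medians were 0.12, -0.04 and 0.01. Among 11 other AP-1 subunits and dimer partners 7 passed the limit, with 2, 0 and 1 at least 2-fold higher. Atf2, a JUN partner and the highest of that list, stood at 35.1, 35.8 and 34.7 RPKM, against 39.1 in wild type. Fosl2, a FOS paralogue, had 4.65, 3.95 and 4.23 RPKM, against 1.57 in wild type, and Atf3, a stress-induced partner of JUN, had 7.51, 4.28 and 6.88, against 3.18. Both were picked after their values were seen.

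Among the 20 other immediate early genes 15 passed the limit, with 1, 2 and 1 at least 2-fold higher. Myc, the growth regulator, had 11.5 RPKM in the Rad23b-/- library, 11.2 in KD1 and 9.87 in KD2, against 4.65 in wild type. Btg2, an antiproliferative gene, had 21.5, 26.3 and 24.7 RPKM, against 11.7 in wild type. Mcl1, a survival protein of the BCL2 family and the highest of the list, stood at 257, 275 and 252 RPKM, against 198. Egr2, Egr3 and Egr4, the relatives of Egr1, stayed below 1 RPKM in all 4 libraries. Of 11 feedback regulators and targets of ERK 10 passed the limit, with 1 at least 2-fold higher in each comparison. That gene was Spry4, an inhibitor of receptor tyrosine kinase signalling, with 28.8, 29.6 and 31.9 RPKM, against 12.9 in wild type. Etv5, an ETS factor and the highest of the list, stood at 87.8, 84.8 and 83.7, against 107. Upstream, of 10 serum response factor, ETS partner and CREB genes only Elk4 in KD2 passed 2-fold, and Atf1, the highest, had 45.8, 58.5 and 41.4 RPKM, against 76.1. Srf itself had 6.28, 5.84 and 5.61 RPKM, against 10.2 in wild type. Of 14 MAP kinase pathway genes Braf was the one past 2-fold, in the Rad23b-/- library (178 RPKM, against 71.3 in wild type). In KD1 and KD2, which share the Rad23b deletion, its deposited ratios to wild type were only 1.05 and 1.37. The p-values in the authors' deposited table were 0.965 for Braf in the Rad23b-/- library and 0.618 for Elk4 in KD2. Elk4, Srf, Braf and the Egr relatives were named after their values were seen.

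Likeness of profile was measured as the distance between centred log2 levels over the 4 libraries, among 4823 genes with a mean RPKM of at least 10 and coordinates of their own. The genes nearest to the median profile of the 9 were Csnk2a2, Edc4, Rbm33, Psmf1 and Scarb2, at distances of 0.014 to 0.050. The members themselves lay from 0.108 (Jund) and 0.117 (Ier2) to 1.10 (Ier3), 1.11 (Fosb) and 1.63 (Fos) from that median, so it stands for the genes that differed little. Profiles nearest to single members were added afterwards. Nearest to Fos were Plac8, Ccdc43, Rpl39l, Acot1 and Rad23b itself, at 0.381 to 0.519. Nearest to Egr1 were Cuta, Pttg1, Igf2bp2, Slc6a6 and Sgk1, at 0.137 to 0.186. Nearest to Ier3 was Spry4 (0.140), followed by Ero1l, Gm15253, P4ha2 and Zfp423. Such distances over 4 single libraries are a description.

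RAD23B regions were listed at all 9 genes in wild-type D3 cells. The RNA levels set beside these regions come from a different stem cell line. A shared region, meaning a replicate 1 region that overlaps a replicate 2 region by at least 1 bp, lay in the locus or within 5 kb of 9 of 9 genes, for Jun within a listed locus joined to its neighbours. The same held for 42.7% of 23524 genes with coordinates of their own and for 77.0% of the 8447 of these with a wild-type level of at least 1 RPKM (85.3% on chromosome 8, 76.5% elsewhere), so regions were common at active genes. Jun, Jund and Egr1 share listed coordinates and are not among those 23524. Within 1 kb of the listed start 7 of 9 genes had a shared region, against 31.4% of all and 66.7% of the active genes. Fosb and Jun had none there, and for Jun the listed start is that of the joined locus. The numbers of shared regions were 5 at Jun, Junb and Ier2, 4 at Jund, 3 at Egr1 and Dusp1, 2 at Fos and Ier3 and 1 at Fosb. Among 2882 active genes with loci of up to 7325 bp, the length of Fosb, the median was 1 (25th to 75th percentile 0 to 2, 95th percentile 4). Jun's joined locus of 118285 bp is far longer, so its number cannot be set against that median. In all, 39 regions of replicate 1 and 34 of replicate 2 lay at the 9 genes, with 7 and 5 of them in Jun's joined locus. Their authors' folds of RAD23B over IgG had a median of 1.81 in replicate 1 and 1.89 in replicate 2, below the medians of 1.88 and 2.09 over all regions. Folds of at least 2 were reached by 28.2% of the members' regions in replicate 1 (41.7% of all regions) and by 41.2% in replicate 2 (56.3%).

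Of the genes with lower RNA in the mutants, Fos and Egr1 had regions over the start and Fosb had its shared region away from it. Fos had a region over its start (chr12:86814253-86815260, mm9) with 314 RAD23B reads and 160 IgG reads in replicate 1, and 139 and 62 in replicate 2. Its folds of 1.87 and 2.22 were near the middle of each list (percentiles 49.3 and 57.5). Another region upstream (chr12:86812930-86813468) had 157 RAD23B and 78 IgG reads in replicate 1 and 83 and 41 in replicate 2. Egr1 had a region over its start (chr18:35020594-35020928) with 95 RAD23B and 39 IgG reads in replicate 1, and 50 and 21 in replicate 2. Those folds, 2.29 and 2.32, were the highest of the 3 shared Egr1 regions, and the other 2 lay upstream with folds of 1.38 to 1.56. Fosb had its shared region inside the locus near the far end (chr7:19889083-19889508), with 106 RAD23B and 61 IgG reads in replicate 1 and 50 and 33 in replicate 2. A region just upstream of the Fosb start (chr7:19895502-19895998; 128 RAD23B and 70 IgG reads) was listed in replicate 1 only. Replicate 2 was the shallower library, with 62.5 M reads against 109 M in replicate 1. It listed no region whose highest stack of reads was below 40, and replicate 1 none below 61. Scaled to library size (RPM), the lowest listed stack in replicate 2 was 0.640. The region just upstream of the Fosb start had a highest stack of 90 reads in replicate 1, at an RPM of 0.823. The part of depth in the absence of that region from the replicate 2 list was not tested.

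Ier3, whose RNA was higher, had a region over its start as well (chr17:35958252-35958842), with 178 RAD23B and 91 IgG reads in replicate 1 and 88 and 44 in replicate 2. A stronger region past its end (chr17:35959785-35960733) had 374 RAD23B and 114 IgG reads in replicate 1 and 160 and 61 in replicate 2. That region reached folds of 3.11 and 2.60, but its centre lay 85 bp (replicate 1) and 25 bp (replicate 2) from the listed start of the neighbouring gene Flot1. Dusp1 had a wide region over its start (chr17:26644732-26646412) with 631 RAD23B and 305 IgG reads in replicate 1 and a fold of 1.97. In replicate 2 the same stretch was listed as 2 regions, the larger with 277 RAD23B and 135 IgG reads. The genes with little difference in RNA held the strongest region: upstream of Jund (chr8:73220233-73221273) 704 RAD23B and 193 IgG reads were listed in replicate 1, and 286 and 93 in replicate 2. Its folds of 3.47 and 3.05 stood at percentiles 93.1 and 82.6 of the lists. Junb had a region over its start (chr8:87502299-87503092; 340 RAD23B and 184 IgG reads, fold 1.76), and a larger one past its end (chr8:87499282-87500888; 759 and 350 reads, fold 2.06). Ier2 was covered whole by 1 region (chr8:87184678-87187063) with 1039 RAD23B and 618 IgG reads in replicate 1 and 477 and 293 in replicate 2, at folds of only 1.60 and 1.63. The listed locus of Jun spans 118285 bp because it is joined to its neighbours, so its start was used only in the count within 1 kb. The strongest region there (chr4:94772690-94773361; 194 RAD23B and 67 IgG reads, folds 2.74 and 2.93) lay 57302 bp or more from every listed start.

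**Figure D3:**
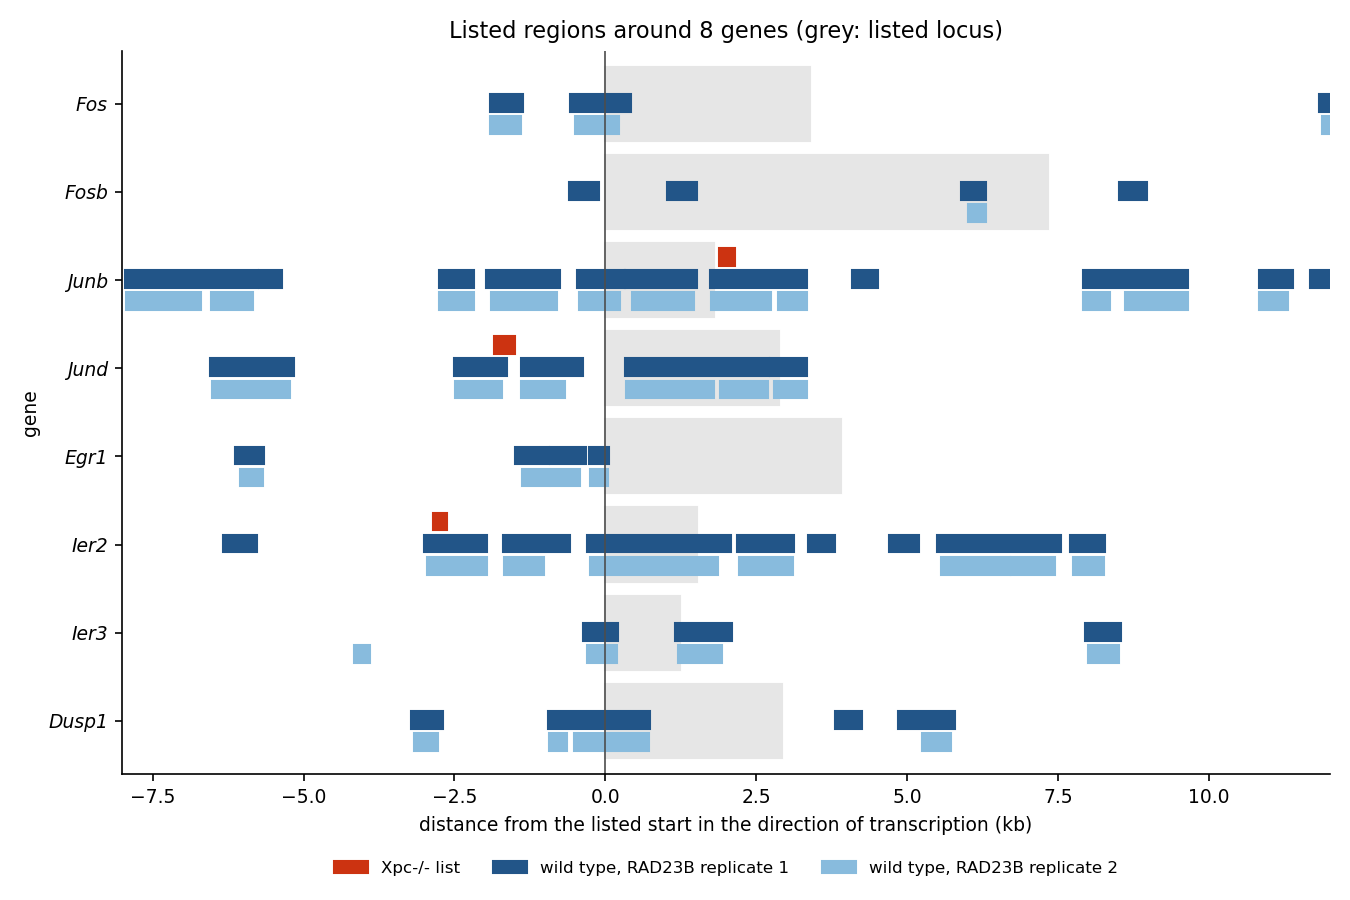
Listed regions around 8 of the genes (Jun left out for its joined locus), by distance in kb from the listed start in the direction of transcription; the grey box is the listed locus. Fos, Junb, Egr1, Ier2, Ier3 and Dusp1 have regions over the start in both wild-type replicates, and Xpc-/- regions appear near Junb, Jund and Ier2.

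In the list from Xpc-/- cells 3 of the 9 genes had a region within 5 kb, Junb, Jund and Ier2, where 1.82% of genes with coordinates of their own and 3.93% of the active ones did. None of these regions lay in a locus, where 1.05% of genes and 2.36% of the active ones had one. The Junb region (chr8:87500470-87500727) lay just past the end of the gene with an authors' fold of 1.41. The Jund region (chr8:73219800-73220146) lay upstream at 1.60, and the Ier2 region (chr8:87189373-87189614), also upstream, at 1.37. All 3 genes are on chromosome 8, which held 57.6% of the 828 Xpc-/- regions and 7.58% and 8.63% of the wild-type lists. Among active genes a listed Xpc-/- region lay within 5 kb of 32.8% on chromosome 8 and of 2.36% on the others. Fos, Fosb, Jun, Egr1, Ier3 and Dusp1, on other chromosomes, had none. Reads headed IgG outnumbered reads headed RAD23B in all 828 regions of this list, and the authors' fold followed IgG over RAD23B by those headings. At Junb the columns held 46 reads headed RAD23B and 80 headed IgG, at Jund 66 and 130, and at Ier2 56 and 94. Whether the headings were swapped or IgG was the library called could not be settled, so these regions are not read as RAD23B enrichment.

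The chromosome 8 genes also had more IgG reads in their wild-type regions. The regions at Junb, Jund and Ier2 had a median of 208 IgG reads per kb in replicate 1, against 144 at the other 6 genes, and 125 against 84.4 in replicate 2. RAD23B reads were higher there too, at 389 against 282 per kb in replicate 1 and 224 against 170 in replicate 2. Over all regions of the lists, IgG reads per kb on chromosome 8 were 160 against 135 on the other chromosomes in replicate 1, and 94.7 against 79.7 in replicate 2. The median authors' fold of the members' regions was 1.73 on chromosome 8 and 1.86 elsewhere in replicate 1, and 1.78 and 2.02 in replicate 2. The part of this read density in the numbers of regions at Junb, Jund and Ier2 was not tested. The median number of shared regions at active genes of comparable length was 1 on chromosome 8 (145 genes) and 1 elsewhere (2737 genes).

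**Figure D4:**
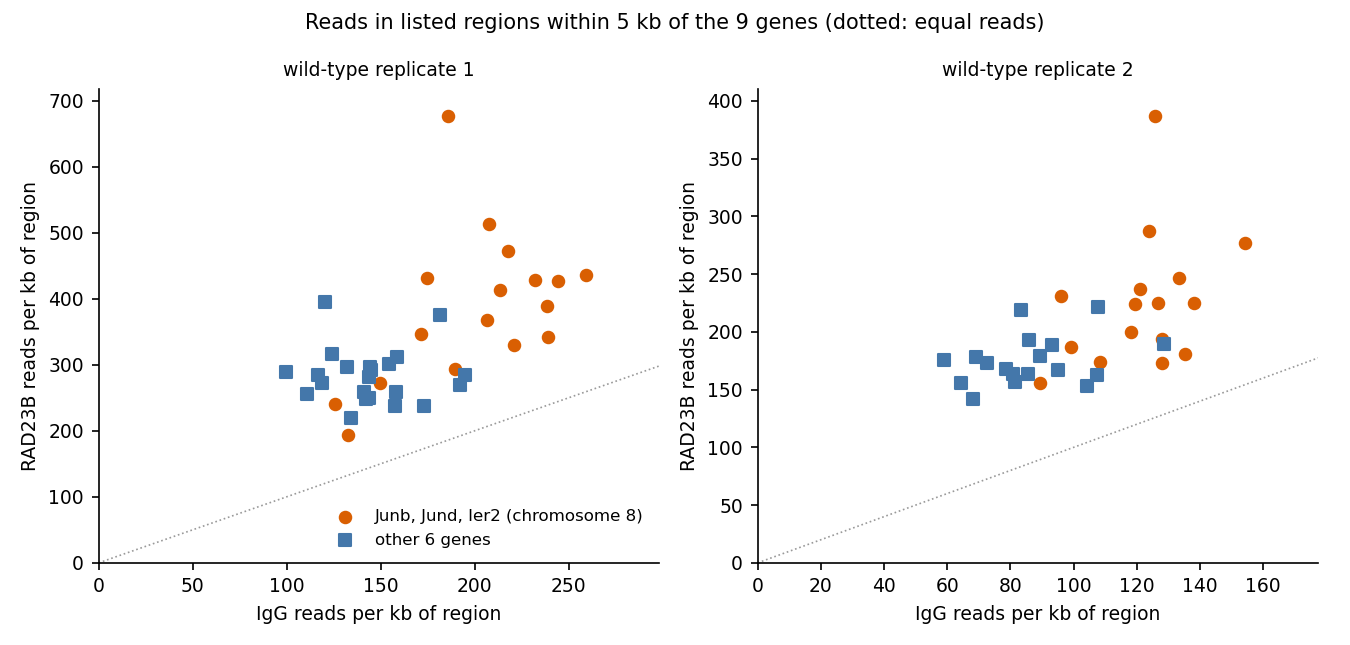
RAD23B reads per kb against IgG reads per kb of each listed region within 5 kb of the 9 genes, by wild-type replicate; the dotted line marks equal reads. Regions at Junb, Jund and Ier2 on chromosome 8 lie further right (median 208 and 125 IgG reads per kb) than those at the other 6 genes (144 and 84.4).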

How the data were processed

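Measured were RNA in 4 libraries and RAD23B or IgG ChIP in 6, grouped by the labels. RPKM values and their ratios came from the authors' deposited tables, made from single-end poly-A libraries. The submitters' processing notes name mm9, TopHat2 2.0.6, Cufflinks 2.0.2 and Cuffdiff. The deposited p-value has 3 decimals and no stated adjustment. The tables were scaled separately, so knockdown levels were multiplied by 1.03 and 1.02 to match the wild-type values of the Rad23b-/- table, while ratios used each table's own wild-type column. Exactly 1 stands in 13841 wild-type values and was read as 0. Of 36658 lines 72 without a gene name (0.00144% of wild-type RPKM) were left out. RNA read totals are not given.

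Region lists came with Partek against IgG, per the submitters' processing notes, with the aligner and thresholds not stated there. They hold, per the file headers, counts of reads from both libraries in each region, a scaled fold, a p-value, and RPM, the highest stack of reads scaled to library size. The deposited stack height, an extended-read signal, over RPM gave 109, 62.5 and 145 M reads for replicate 1, replicate 2 and the Xpc-/- list. The folds are the authors' and served only to describe or filter regions within a list. Headings in the replicate 2 list repeat replicate 1 names, although its values differ. Promoters (GRCm38.p6) were not overlaid on mm9 coordinates.

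Computed here, with Python 3.11.15, pandas 2.3.3, numpy 2.4.6 and matplotlib 3.10.9, were log2 ratios of RPKM + 1 for genes that reached 1 RPKM in either library, called at 2-fold, and overlaps of regions by at least 1 bp. The scripts were tested on simulated data. No test was possible with 1 RNA library per group. Genes outside the 9 were named when at least 2-fold from wild type in 2 mutant libraries in 1 direction with an RPKM of at least 5 in any library, or when highest in their list; 1 gene that this rule names is not reported here. The members, lists and settings were chosen with earlier results of these data known.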

Additional observations from a re-analysis of the deposited data

How the results depend on the processing

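Some counts depended on the settings. Centring the ratios on the median of all genes gave 2 genes at least 2-fold higher in the Rad23b-/- library in place of 0, Junb (log2 1.11) and Ier3 (1.08). In KD1 the count of higher genes was 0 in place of 1 with a pseudocount of 5 (Ier3 at 0.96), and also 0 with the wild-type values of the Rad23b-/- table (Ier3 at 0.98). With a pseudocount of 5 the count of lower genes was 2 in place of 3 in the Rad23b-/- library and in KD1, where Fosb dropped out (-0.47 and -0.56), and 1 in KD2, Fos (Fosb -0.58, Egr1 -0.95). For the Xpc-/- list the count was 0 in place of 3 in the locus only, 0 within 1 kb of the start and 0 among regions with a fold of at least 2. Centring gave 2 lower genes in KD2, where Egr1 dropped out (-0.90). Among genes with coordinates of their own, which leave out Egr1, the lower genes were 2 in each comparison. In all, 47 recomputed counts, every count of 2 lower genes among them, stayed within 1.5 times the value given. Some of these could not move, as the wild-type values of the Rad23b-/- table are the main setting for the Rad23b-/- library. No log2 ratio past 2-fold changed sign. With either wild-type list alone the count of genes with a RAD23B region was also 9. As all 9 genes had a shared region, that count could hardly come out lower. With a fold of at least 2 in both replicates the count was 7, without Fos and Fosb. The share of all genes at that limit was not computed. No paired analysis was possible because each RNA group is 1 library and the ChIP results come from no test. With 1 library per group the spread between repeats is unknown, the low level of Fosb limits its ratio, and a pseudocount weighs most on it.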
